A study of Mus musculus with 7 samples.

Results

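The 9 genes described here, *Rag2*, *Dntt*, *Prkdc*, *Lig4*, *Xrcc4*, *Xrcc5*, *Xrcc6*, *Dclre1c* and *Nhej1*, encode the machinery that cuts antigen receptor loci and rejoins the ends. They were listed by name as components of V(D)J recombination and classical end joining. All 9 had a row among the 12092 genes of the RNA-Seq table. *Rag1*, which encodes the catalytic partner of RAG2, has no row in the table read here.

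RNA was sequenced from CD4+ CD8+ double-positive (DP) thymocytes that were sorted as TCRγδ- from mice aged 4 to 5 weeks, with 1 mouse per library. All animals were littermates on a mixed B6/129 background. Wild-type (WT) mice gave 1 library. pTαKO mice, which lack the pre-TCR chain pTα (gene *Ptcra*), gave 1 library, labelled replicate 2, and the second pTαKO sample, withdrawn by the submitters for low quality, was not analysed here. L-DKO mice carry floxed *Id2* and *Id3* alleles deleted by LckCre, a T lineage transgene, and gave 2 libraries. LP mice combine the L-DKO alleles with loss of pTα and gave 2 libraries. Id2/Id3 deletion is thus limited to cells in which Cre acted, whereas pTα is missing in the whole animal. Below, Id-deleted means L-DKO and LP (4 libraries), and pTα-deleted means pTαKO and LP (3 libraries).

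V(D)J recombination assembles T cell receptor genes from separate segments. RAG1 and RAG2 cut the DNA beside the segments, the Ku heterodimer (XRCC5 and XRCC6) binds the broken ends and recruits DNA-PKcs (PRKDC), and Artemis (DCLRE1C) opens the hairpins left by the cut. Terminal transferase (DNTT) adds bases without a template, and DNA ligase IV (LIG4) seals the ends together with XRCC4 and XLF (NHEJ1). DP thymocytes rearrange the TCR alpha locus with this machinery. Id2 and Id3 hold E proteins such as E2A away from DNA, and E proteins bind short motifs called E-boxes.

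The promoters of 4 members are printed because E-boxes are the motif that E proteins recognise. *Rag2* and *Dntt* are the lymphoid-restricted members, and *Nhej1* and *Xrcc6* were higher in all pTα-deleted libraries. *Lig4*, which was lower in all of these libraries, is not among the printed promoters. Each printed window is the RefSeq sequence (GRCm38.p6) from 250 bases before a transcription start to 50 bases after it, 5′ to 3′ on the gene's strand. E-boxes (CANNTG, which reads the same motif on both strands) are in capitals. For *Xrcc6* this start lies inside the annotated gene, which begins upstream at base 81987833. The windows are chr2:101624462-101624761 (plus strand) for *Rag2*, chr19:41029025-41029324 (plus strand) for *Dntt*, chr1:75125177-75125476 (minus strand) for *Nhej1* and chr15:82016119-82016418 (plus strand) for *Xrcc6*.
Rag2: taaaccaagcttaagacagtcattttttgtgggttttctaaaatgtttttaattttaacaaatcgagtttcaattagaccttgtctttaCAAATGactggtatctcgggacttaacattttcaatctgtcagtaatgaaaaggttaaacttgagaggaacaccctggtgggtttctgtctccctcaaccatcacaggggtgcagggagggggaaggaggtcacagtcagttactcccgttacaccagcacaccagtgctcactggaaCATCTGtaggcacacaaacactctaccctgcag
Dntt: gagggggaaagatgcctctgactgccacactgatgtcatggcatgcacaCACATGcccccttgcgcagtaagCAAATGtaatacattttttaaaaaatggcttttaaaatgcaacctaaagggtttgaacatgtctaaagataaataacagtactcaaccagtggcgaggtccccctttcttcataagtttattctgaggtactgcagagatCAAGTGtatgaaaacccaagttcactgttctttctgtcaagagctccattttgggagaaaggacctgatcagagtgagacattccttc
Nhej1: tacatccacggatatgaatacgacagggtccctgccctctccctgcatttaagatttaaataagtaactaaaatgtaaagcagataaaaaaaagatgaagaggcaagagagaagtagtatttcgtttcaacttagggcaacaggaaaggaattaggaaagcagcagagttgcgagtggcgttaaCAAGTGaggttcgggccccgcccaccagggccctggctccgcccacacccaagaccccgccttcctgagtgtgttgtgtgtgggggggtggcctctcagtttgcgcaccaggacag
Xrcc6: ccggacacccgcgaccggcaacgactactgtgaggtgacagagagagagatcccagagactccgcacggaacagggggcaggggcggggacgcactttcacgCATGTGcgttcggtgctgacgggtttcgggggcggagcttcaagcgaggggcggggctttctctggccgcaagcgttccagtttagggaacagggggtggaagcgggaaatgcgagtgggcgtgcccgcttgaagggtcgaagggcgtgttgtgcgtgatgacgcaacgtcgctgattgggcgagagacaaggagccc

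The *Rag2* window held CAAATG with its first base at position -161 and CATCTG at position 17, counted from the start site. The *Dntt* window held CACATG at -201, CAAATG at -178 and CAAGTG at -38. *Nhej1* held a single CAAGTG at -66, and *Xrcc6* a single CATGTG at -148. RefSeq promoters were matched for 8 of the 9 members, 9 windows in all, since *Lig4* has 2 and *Prkdc* had no entry. An E-box was present in 8 of these 9 windows, with *Xrcc4* the exception, and 72.3% of all 32851 promoters of the same length held one. CAGGTG, searched on both strands, was in 0 of the 9 windows and in 20.2% of all promoters. CAGCTG, which is its own reverse complement, was in 3 windows (both of *Lig4*, and *Dclre1c* with 2 copies) and in 16.3% of all promoters. In the 150 bases before the start alone, 6 of the 9 windows held an E-box, against 47.7% of all promoters. These matches describe letters in a window and not bound sites.

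Per the annotation of the same build, *Rag2* lies on chromosome 2 (101624712 to 101632528), next to *Rag1* (101638252 to 101649532), and *Dntt* on chromosome 19 (41029275 to 41059525). *Xrcc5* (72307417 to 72394953) and *Nhej1* (74967346 to 75125226) are both on chromosome 1. *Xrcc6* is on chromosome 15 (81987833 to 82040085), *Prkdc* on chromosome 16 (15637444 to 15842239), *Dclre1c* on chromosome 2 (3424061 to 3474211), *Lig4* on chromosome 8 (9970020 to 9977680) and *Xrcc4* on chromosome 13 (89848914 to 90089608). Annotated genes overlap *Rag2* (*Iftap*, no row), *Xrcc6* (*Desi1*), *Dclre1c* (*Suv39h2*) and *Prkdc* (a pseudogene, no row). Whether reads were assigned by strand is not given in the sources used here, so reads of such partners cannot be told apart from those of the member. *Desi1* lay between 7.21 and 7.48 log2(FPKM + 1) in the 6 libraries, and *Suv39h2* was no higher than 2.79.

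The libraries had similar medians over all genes (3.95 to 4.02 on the log2(FPKM + 1) scale), while the 20 most abundant entries took from 30.0% of all FPKM in WT to 72.6% in LP replicate 2. Sequencing depth is not stated. *Id3* stood at 6.22 in WT and 5.25 in pTαKO against 1.91 to 3.32 in the 4 Id-deleted libraries, so it was lower in all of them. *Id2* was 3.56 in WT, 1.87 in pTαKO and 0.24 to 1.92 in Id-deleted libraries, whose range includes the pTαKO value. *Ptcra* was 5.06 in WT and 5.75 in the pTαKO mouse, and read 6.35 and 6.62 in both L-DKO mice and 5.35 and 5.87 in both LP mice, so this whole-gene value does not separate pTα-deleted from pTα-intact libraries and does not check that label. The Y-linked *Ddx3y* was 0.67 in pTαKO and 0.63 in LP replicate 2 against 4.21 to 5.14 in the others, and the labels do not give sex. DP markers were high throughout, with *Cd4* between 9.08 and 9.55 and *Cd8a* between 9.31 and 9.57.

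FPKM is scaled by transcript length, so levels can be set against each other between genes, within limits. Reads of *Desi1* cannot be told apart from those of *Xrcc6*, which bears on the *Xrcc6* level and its ratio to *Xrcc5*. Some symbols are also split over entries. *Dntt* was the most abundant, with a mean of 779 FPKM (733 to 845 over the 6 libraries), and it ranked above 99.0% of genes. *Xrcc6* followed with 286 FPKM (213 to 350) and *Rag2* with values of 89.4 to 124 FPKM. *Lig4* averaged 44.0 FPKM (36.9 to 55.0), *Dclre1c* 23.7 (16.7 to 31.8) and *Xrcc4*, in the entry used, 18.7 (13.6 to 27.9). The lowest were *Xrcc5* at 7.23 FPKM (3.59 to 9.15), *Nhej1* at 7.15 (3.40 to 12.8) and *Prkdc* at 4.47 (3.82 to 4.97).

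From *Dntt* down through *Xrcc6*, *Rag2* and *Lig4* to *Dclre1c*, each gene's lowest library lay above the next gene's highest, and the same was true of *Xrcc4* over *Xrcc5*. The other 3 neighbouring pairs in this order overlapped. *Dclre1c* exceeded *Xrcc4* in 5 of 6 libraries, *Xrcc5* exceeded *Nhej1* in 4 of 6, and *Nhej1* exceeded *Prkdc* in 4 of 6. This order reads 1 entry per symbol and leaves out a second *Xrcc4* entry. That entry alone was 25.0 FPKM in WT and 32.6 in pTαKO, above *Dclre1c* there (17.5 and 31.8). The place of *Xrcc4* in the order thus depends on the entry read. The Ku subunits are partners in 1 heterodimer, yet their messages differed widely in FPKM. *Xrcc6* exceeded *Xrcc5* by 26.4 times in WT, 38.3 in pTαKO, 30.7 and 67.2 for the L-DKO mice and 57.1 and 38.8 for the LP mice.

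**Figure D1:**
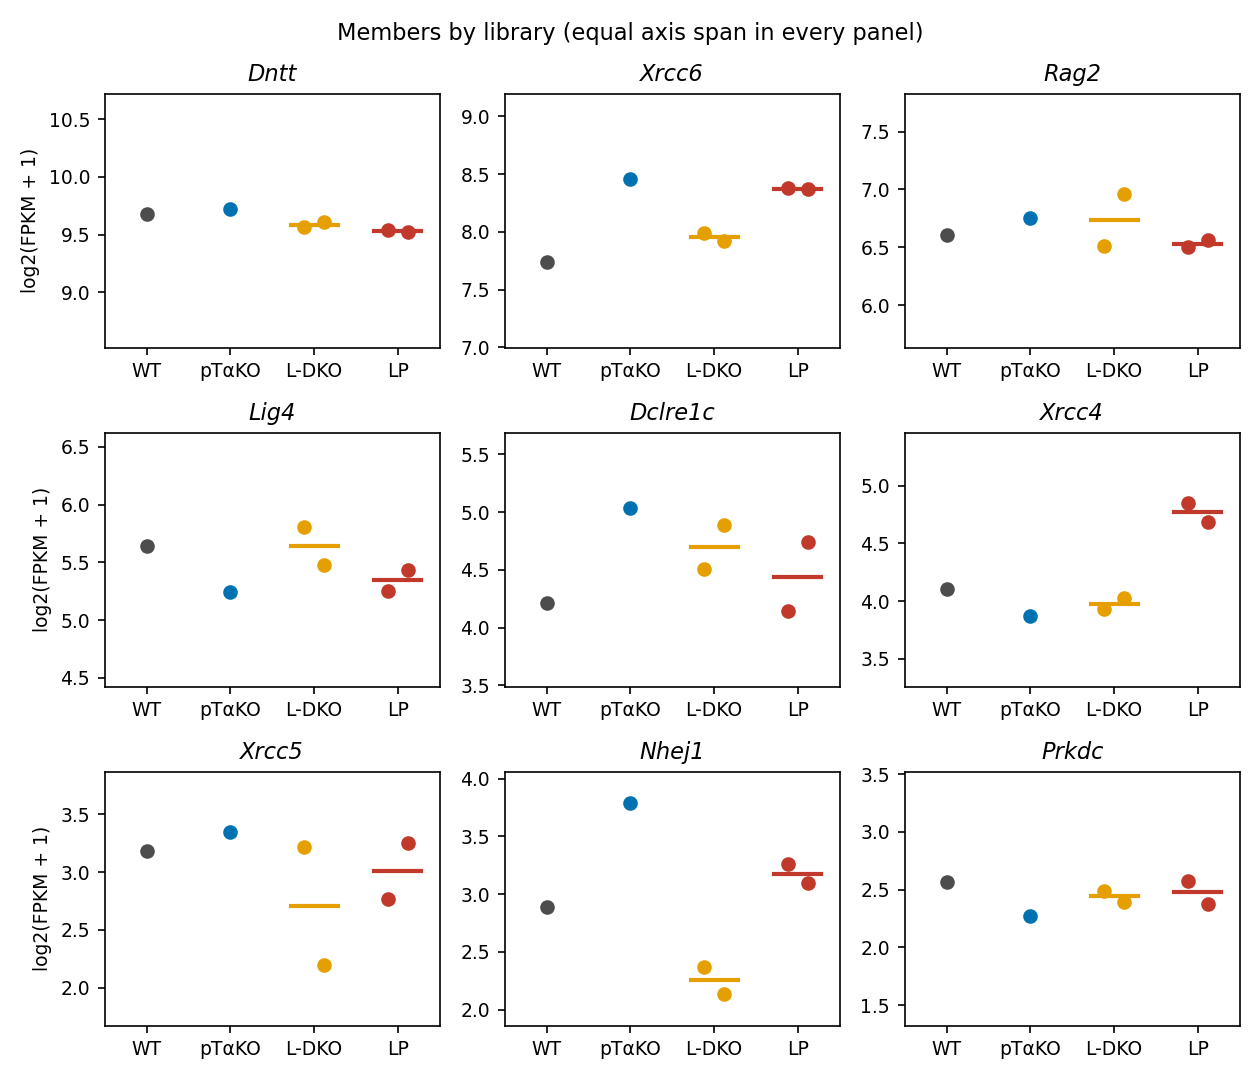
Expression of the 9 genes, 1 panel per gene, in log2(FPKM + 1) on vertical axes of equal span. Points are libraries (WT and pTαKO 1 each, L-DKO and LP 2 each) and bars are means of the 2 libraries; *Dntt* stays between 9.52 and 9.73, whereas *Nhej1* runs from 2.14 to 3.78.

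Differences between groups are given as log2(FPKM + 1), first group minus second, with the SE from a limma fit across all 12063 genes tested and p values adjusted by the Benjamini-Hochberg method over those genes. Because 1 is added before the log, these differences understate the change of low genes. WT and pTαKO have 1 library each and are taken to vary like the other groups. None of the 9 genes passed the threshold of 0.05 in any of the comparisons tested, and all 9 passed the filter on low values.

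With pTα lost, using all 6 libraries and allowing for Id deletion, 0 of the 9 were called, where limma called 0.265% of all genes. Without adjustment, 2 of the 9 had p under 0.05 (*Xrcc6* and *Nhej1*, both higher), against 12.9% of all genes. All pTα-deleted libraries lay above all pTα-intact ones for these 2 members (9.94% of genes did so) and below them for 1, *Lig4* (8.8%). The median difference was 0.10 over the 9 and 0.0091 over all genes tested.

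With Id2 and Id3 lost, allowing for pTα, 0 of 9 were called (0.0166% of all genes) and 1, *Nhej1*, had an unadjusted p under 0.05, against 6.42% of all genes. With 1 entry read per symbol, the groups were separate for 1 member, *Dntt*, which was lower in all 4 Id-deleted libraries (5.87% of genes). No member was higher without overlap (6.94% of genes). With the entries of a symbol summed, *Xrcc4* was also lower in all 4 Id-deleted libraries, with a wider gap than *Dntt*. The median was -0.05 over the 9 and 0.0050 over all genes.

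In L-DKO against WT, 0 of 9 were called (0.0414% of genes) and 0 had an unadjusted p under 0.05 in limma (4.34% of genes). Both L-DKO libraries lay above the WT library for 2 members (34.9% of genes) and below it for 4 (29.7%). In LP against L-DKO, 0 of 9 were called (0.0166%), and 3 had an unadjusted p under 0.05, all higher in LP (*Xrcc4*, *Xrcc6* and *Nhej1*, against 11.1% of genes). The 2 LP libraries lay above both L-DKO libraries for 3 members (22.3% of genes) and below both for 2 (22.2%). In LP against pTαKO, 0 of 9 were called (0.0995%), 1, *Xrcc4*, had an unadjusted p under 0.05 (6.19%), and the LP libraries lay on 1 side of the pTαKO library for all 9 members, above it for 3 (33.9% of genes) and below it for 6 (35.3%). For the interaction, the effect of Id deletion without pTα minus that with pTα, 0 of 9 were called (0.0497%), and 1, *Xrcc4*, had an unadjusted p under 0.05 (4.46%). The medians of the 9 were -0.09 in L-DKO against WT, 0.04 in LP against L-DKO and -0.20 in LP against pTαKO, beside 0.02, 0.0014 and -0.0052 over all genes. These comparisons share libraries, so their values for 1 gene are not separate evidence.

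*Rag2*, the regulatory subunit of the recombinase, was 6.61 in the WT library and 6.75 in pTαKO, with 6.51 and 6.96 for the L-DKO mice and 6.50 and 6.56 for the LP mice. The groups overlapped by either deletion, and the 2 L-DKO mice differed by more than any 2 group means did. The difference for Id deletion was -0.05 ± 0.17 (SE, 95% interval -0.46 to 0.37, adjusted p = 0.978 in limma). For pTα loss it was -0.09 ± 0.16 (-0.48 to 0.30, adjusted p = 0.849 in limma). The sign of each of these values turned when 1 library was left out, to 0.13 for Id deletion without pTαKO and to 0.07 for pTα loss without L-DKO replicate 2. L-DKO minus WT was 0.13 ± 0.24 and LP minus L-DKO was -0.21 ± 0.19, and neither passed.

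*Dntt*, which encodes terminal transferase, had the smallest spread of the group. It was 9.68 in WT and 9.73 in the pTαKO mouse, and read 9.57 and 9.61 in both L-DKO mice and 9.54 and 9.52 in both LP mice. The highest library held 1.15 times the FPKM of the lowest, and 1.11% of genes with a mean of at least 1 FPKM had a smaller log2 range. All 4 Id-deleted libraries were below both Id-intact ones, with 0.07 between the groups, and the separation was lost under quantile normalization. The difference was -0.14 ± 0.12 (95% interval -0.43 to 0.14, adjusted p = 0.870 in limma), so a fall to less than 0.741 times lay outside the interval. For pTα loss it was -0.02 ± 0.11 (-0.30 to 0.25, adjusted p = 0.948 in limma), and its sign turned under quantile normalization (0.03) and rescaling to the total outside the 20 most abundant entries (0.00864).

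Profiles over the 6 libraries were compared with those of 9987 genes, each centred on its own mean, by the mean absolute difference in log2 units. Nearest to *Rag2* were *Phf3* (0.032), *Itpa* (0.036), *Mdm2* (0.040), *Sp140* (0.042) and *Zfp398* (0.042). Nearest to *Dntt* were *Fermt3* (0.030), *Nin* (0.036), *Usp8* (0.038), *Cct5* (0.039) and *Copb1* (0.039). With 6 libraries from 4 genotypes, such a ranking describes these profiles only.

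Of the Ku genes, *Xrcc6* (Ku70) was 7.74 in WT, with 7.99 and 7.92 for the L-DKO mice, whereas pTαKO stood at 8.45 and the LP mice at 8.38 and 8.37. All 3 pTα-deleted libraries were therefore higher than all 3 with pTα. The difference was 0.52 ± 0.11 (95% interval 0.24 to 0.79, 1.43-fold), with an unadjusted p of 0.00365 and an adjusted p of 0.181 in limma. It did not pass the threshold, and the adjusted p ranged from 0.174 to 0.387 over the alternative settings. LP exceeded L-DKO by 0.42 ± 0.13 (adjusted p = 0.386 in limma), and pTαKO exceeded WT by 0.71, 1 library against 1. Id deletion gave 0.07 ± 0.12 (-0.22 to 0.36), a value whose sign turned to -0.02 after rescaling to the total outside the 20 most abundant entries and to -0.08 without WT.

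*Xrcc5* (Ku80) was 3.18 in the WT library and 3.34 in pTαKO, with 3.21 and 2.2 for the L-DKO mice and 2.77 and 3.25 for the LP mice. L-DKO replicate 2 was the low value, and the other L-DKO mouse was level with WT. Neither deletion separated the libraries, and the intervals were wide (-1.29 to 0.48 for Id deletion and -0.58 to 1.09 for pTα loss). Without L-DKO replicate 2, L-DKO exceeded WT by 0.03, where both libraries gave -0.47 ± 0.56.

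*Prkdc*, which encodes the DNA-PK catalytic subunit, was 2.57 in WT and 2.27 in the pTαKO mouse, and read 2.49 and 2.39 in both L-DKO mice and 2.58 and 2.38 in both LP mice. The groups overlapped by either deletion. Its differences were 0.04 ± 0.27 for Id deletion and -0.08 ± 0.25 for pTα loss.

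*Dclre1c* (Artemis) was 4.21 in the WT library and 5.03 in pTαKO, with 4.51 and 4.89 for the L-DKO mice and 4.14 and 4.74 for the LP mice. The LP and L-DKO values overlapped, and pTαKO was the highest library. L-DKO exceeded WT by 0.49 ± 0.35 and LP fell below pTαKO by 0.59 ± 0.35 on the log2 scale, and neither passed. With 1 library left out these ran from 0.29 (without L-DKO replicate 2) to 0.68 (without L-DKO replicate 1), and from -0.89 (without LP replicate 2) to -0.29 (without LP replicate 1). The interaction of both deletions was -1.08 ± 0.50 (95% interval -2.37 to 0.21, adjusted p = 0.996 in limma).

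*Lig4* was 5.64 in WT and 5.24 in the pTαKO mouse, and read 5.81 and 5.48 in both L-DKO mice and 5.25 and 5.44 in both LP mice. The 3 pTα-deleted libraries lay below the other 3, by a gap of only 0.04 between LP replicate 2 and L-DKO replicate 2. The difference was -0.33 ± 0.14 (95% interval -0.68 to 0.02, adjusted p = 0.407 in limma), and the groups stayed separate under 4 of 6 settings of scale, pseudocount or repeated entries. For Id deletion it was 0.05 ± 0.15, with a sign that turned under rescaling to the total outside the 20 most abundant entries (-0.03).

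*Nhej1* (XLF) varied most among the members. It was 2.89 in the WT library and 3.78 in pTαKO, with 2.37 and 2.14 for the L-DKO mice and 3.26 and 3.09 for the LP mice. The 3 pTα-deleted libraries were above the other 3, with a difference of 0.91 ± 0.22 (95% interval 0.37 to 1.46, 1.88-fold). The unadjusted p was 0.00659 and the adjusted p 0.224 in limma, with a range of 0.178 to 0.462 over the alternative settings. At each pTα status the Id-deleted libraries were the lower ones, with L-DKO below WT by 0.64 ± 0.37 and LP below pTαKO by 0.61 ± 0.37. The additive difference for Id deletion was -0.62 ± 0.24 (-1.20 to -0.04, adjusted p = 0.751 in limma), and the interaction was 0.03 ± 0.52.

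**Figure D2:**
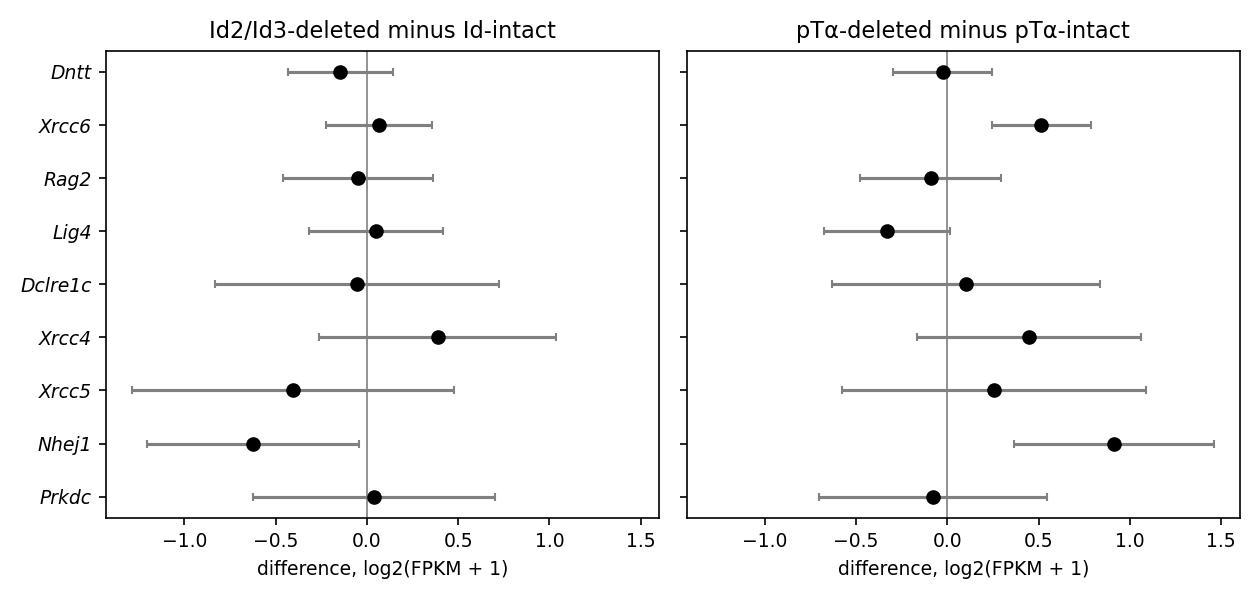
Difference in log2(FPKM + 1) for each gene with Id2/Id3 deleted (left) and with pTα deleted (right), from the additive limma fit over 6 libraries; points are estimates and bars 95% intervals without adjustment. The intervals of *Xrcc6* (0.24 to 0.79) and *Nhej1* (0.37 to 1.46) lie above 0 on the right, and none of the differences passed after adjustment.

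*Xrcc4*, the scaffold of the ligase complex, was 4.11 in WT and 3.87 in the pTαKO mouse, and read 3.93 and 4.02 in both L-DKO mice and 4.85 and 4.69 in both LP mice. Both LP libraries were above the other 4. LP exceeded L-DKO by 0.79 ± 0.20 (95% interval 0.26 to 1.32, unadjusted p = 0.0122, adjusted p = 0.342 in limma) and pTαKO by 0.90 ± 0.25 (0.25 to 1.55, adjusted p = 0.713 in limma). The interaction was 1.03 ± 0.35 (0.11 to 1.94, adjusted p = 0.996 in limma), and L-DKO minus WT was -0.13 ± 0.25. In FPKM, the ratio of *Xrcc4* to *Lig4* was 0.332 in the WT library and 0.369 in pTαKO, with 0.260 and 0.351 for the L-DKO mice and 0.750 and 0.586 for the LP mice.

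The symbol *Xrcc4* has a second entry in the table, and that entry changed the picture. It was listed at 4.70 in WT and 5.07 in pTαKO but at 0.66 and 0 for the L-DKO mice and 0.63 and 0 for the LP mice. It was thus the larger of both entries in the 2 Id-intact libraries and near or at 0 in the 4 Id-deleted ones. With the entries summed, the difference for Id deletion turned from 0.39 ± 0.26 to -1.09, and LP against pTαKO from 0.90 to -0.78. All 4 Id-deleted libraries then lay below both Id-intact ones, with a gap of 0.522. L-DKO minus WT went from -0.13 to -1.40, and the interaction from 1.03 to 0.62. The summed ratio of *Xrcc4* to *Lig4* was 0.844 in WT and 1.25 in the pTαKO mouse, and read 0.270 and 0.351 in both L-DKO mice and 0.765 and 0.586 in both LP mice. LP remained above L-DKO in every setting run (0.71 to 0.87).

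*Xrcc6* also has a second entry, listed at 0 in WT and pTαKO and at 2.51 and 2.95 for the L-DKO mice and 2.67 and 1.88 for the LP mice. It was far below the first entry everywhere, and summing moved the pTα difference by less than its SE. Among 1005 minor entries of repeated symbols, 5 were at least 2 log2 units higher in both Id-intact libraries than in all Id-deleted ones, and 21 were at 0 in both Id-intact libraries and above 0 in all Id-deleted ones. What separates the entries of 1 symbol is not given in the table.

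**Figure D3:**
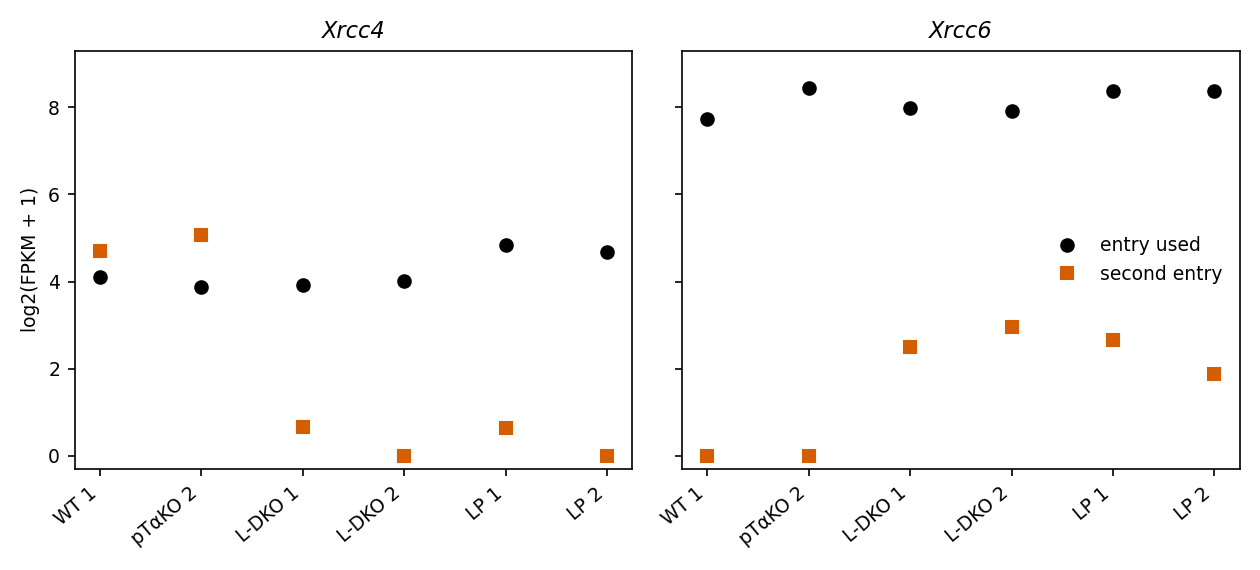
The entry used and the second entry of *Xrcc4* (left) and *Xrcc6* (right) in each of the 6 libraries, in log2(FPKM + 1). The second *Xrcc4* entry reads 4.70 and 5.07 in the Id-intact libraries and 0 to 0.66 in the others, while the second *Xrcc6* entry stays at or below 2.95.

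In pTαKO against WT, 1 library against 1, no member differed by 2-fold or more, which 7.77% of genes did upward and 4.63% downward. The differences were 0.89 for *Nhej1*, 0.82 for *Dclre1c*, 0.71 for *Xrcc6*, 0.16 for *Xrcc5*, 0.14 for *Rag2*, 0.05 for *Dntt*, -0.24 for *Xrcc4*, -0.30 for *Prkdc* and -0.40 for *Lig4*. There is no replicate check of these values.

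Genes acting beside the 9 were read as lists, and no listed gene passed limma's threshold for pTα loss. Of the RAG cofactors and regulators, 6 of 8 were measured, and 5 of these were below 0 with pTα lost (median -0.40), 2 of them with an unadjusted p under 0.05 (12.9% of all genes had one). *Skp2*, a ubiquitin ligase subunit that marks RAG2 for destruction at S phase entry, differed by -0.56 ± 0.23 and *Cdk2*, the kinase upstream of it, by -0.49. All 21 measured cell cycle genes were also below 0 with pTα lost (median -0.53), and the part of cycling state in these 2 values was not tested. In LP against L-DKO all 6 RAG cofactors and regulators were below 0, 3 of them lower without overlap (22.2% of all genes were). *Vprbp*, which encodes a binding partner of RAG1, was 4.93 and 3.94 for the L-DKO mice and 3.43 and 3.88 for the LP mice, a difference of -0.78 ± 0.41. It was -0.28 when L-DKO replicate 1 was left out and -1.27 when the other L-DKO mouse was. Accessory end-joining factors (8 of 10 measured) were evenly divided for pTα loss, 4 above 0 and 4 below (median -0.03), with 0 separate and 0 at an unadjusted p under 0.05. Alternative end-joining genes (10 of 11) were also divided, 5 and 5 (median -0.11), with 0 higher and 2 lower without overlap (*Msh6*, a mismatch repair gene, among them at -0.45) and 2 at an unadjusted p under 0.05. Homologous recombination genes (17 of 19) were 9 above and 8 below (median 0.02), with 0 higher and 3 lower without overlap (*Brca1* and *Blm* among them, at -0.60 and -0.45) and 0 at an unadjusted p under 0.05. Of all genes, 9.94% were higher and 8.8% lower without overlap.

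The break response genes (15 of 16 measured) held 1 gene higher and 4 lower in all pTα-deleted libraries, and 3 had an unadjusted p under 0.05 in limma. The shares over all genes were 9.94%, 8.8% and 12.9%. *Cdkn1a*, the p53 target that encodes the cell cycle inhibitor p21, was 1.78 in WT with 1.02 and 0.96 for the L-DKO mice, and 3.11 in pTαKO with 2.08 and 3.13 for the LP mice. Its difference was 1.52 ± 0.37 (adjusted p = 0.224 in limma). *Trp53* was 6.25 in WT with 6.41 and 6.48 for the L-DKO mice, and 5.77 in pTαKO with 5.99 and 5.92 for the LP mice. It differed by -0.49 ± 0.10 (adjusted p = 0.175 in limma). *Rad50* (-0.45) and *Paxip1* (-0.43) were also lower without overlap, by narrow gaps. *Rad50* was 2.38 and 3.23 for the LP mice, against 3.30 in L-DKO replicate 2. *Paxip1* was 5.171 in LP replicate 2 against 5.184 in L-DKO replicate 1. Of factors linked to control of the *Rag* or *Tcra* loci (19 of 25 measured), 14 were below 0 for pTα loss (median -0.19). *Nr4a1*, an immediate early gene of TCR signalling, differed by -1.28 ± 0.20 (adjusted p = 0.0984 in limma) and *Ikzf1* (Ikaros) by -0.54 ± 0.11 (adjusted p = 0.175 in limma). *Foxo1*, a transcription factor known to drive *Rag* expression in lymphocytes, was the 1 listed gene higher in all pTα-deleted libraries (0.45 ± 0.23, adjusted p = 0.486 in limma). Another 5 were lower in all of them, *Tcf7* among them at -0.23. The gaps were narrow, with *Foxo1* at 3.59 in LP replicate 2 against 3.53 in L-DKO replicate 1. *Tcf7* was 10.70 in LP replicate 1 against 10.73 in L-DKO replicate 1.

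**Figure D4:**
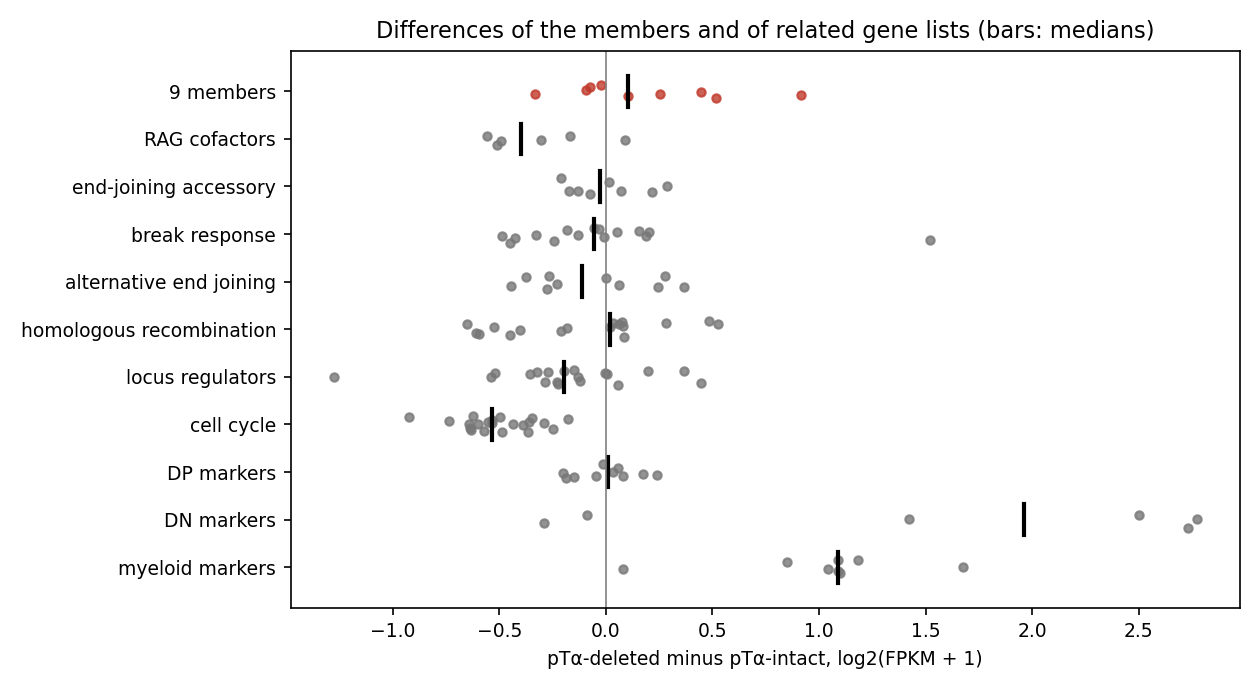
Differences with pTα deleted, in log2(FPKM + 1), for the 9 genes (red) and for members of related lists (grey); each point is a gene and each bar a list median. The 9 spread from -0.33 to 0.91 about a median of 0.10, cell cycle genes all lie below 0 (median -0.53) and DN markers have a median of 1.96.

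Markers of some other cells and states differed in level by pTα as well, though none of the listed markers passed limma's threshold. Summed FPKM of early double-negative (DN) thymocyte markers (6 of 9 measured) was 189 to 245 in pTα-deleted libraries and 19.5 to 66.3 in pTα-intact ones. *Dtx1* held most of it (157 to 207 against 11.7 to 52.0), and the sum without *Dtx1* was 31.7 to 65.5 against 7.79 to 19.1. *Notch1*, *Hes1* and *Dtx1* were higher in all pTα-deleted libraries, whereas *Il2ra* (1.42), *Kit* (-0.09) and *Cd44* (-0.29) overlapped. The sum of myeloid and dendritic markers (8 of 9) was 152 to 233 against 122 to 139. *Cst3*, the most abundant of them, lay between 6.71 and 7.22 log2(FPKM + 1) and differed by only 0.08 for pTα loss. The 8 genes had a median difference of 1.09, and 4 were higher without overlap, as 9.94% of all genes were. Gamma-delta T cell markers (7 of 7) summed to 44.2 to 120 against 24.1 to 31.9. Of these, 5 were higher without overlap, whereas *Tcrg-C1* (0.63) and *Etv5* (-0.52) overlapped. B cell markers (3 of 10, with *Pax5* and *Ebf1* among those without a row) summed to 39.2 to 47.6 against 21.2 to 39.0. That gap was narrow, at 39.16 in LP replicate 1 against 39.02 in L-DKO replicate 2, and 0 of the 3 were higher without overlap. Mature thymocyte markers (4 of 6) overlapped, at 53.2 to 62.0 against 54.4 to 73.6, as did DP markers (10 of 12), at 4278 to 4580 against 4236 to 4582. Cell cycle genes (21 of 24) were all below 0 for pTα loss (median -0.53, 13 with an unadjusted p under 0.05, which 12.9% of all genes had), and their sums were 822 to 1261 against 1220 to 1604. None of the measured markers was at 0 in any library. The part of these cells, of cycling state and of the *Ddx3y* split in the values of *Xrcc6*, *Nhej1* and *Lig4* was not tested. In bulk RNA, fewer cells of a type and less RNA per cell cannot be told apart.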

How the data were processed

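Poly(A) RNA of sorted DP thymocytes was enriched with oligo(dT) and primed with random hexamers. Per the submitters' processing notes, the authors' tools were Trimmomatic 0.32, TopHat2 2.0.9 and Cufflinks 2.2.0 with mm10 (GRCm38). An R filter then took out low-quality genes, and its rule is not given in the sources used here. The deposited values are log2 FPKM per the file headers, and as none is below 0 they were read as log2(FPKM + 1). Group means (2 columns) and differences (3 columns) made by the authors were left aside. Of 7 labelled samples, 6 have a column. Sequencing depth is not given in the sources used here, so no counting interval could be set.

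The table holds 13097 entries of 12092 symbols. A symbol with several entries (1540 entries) was read from the one with the highest mean FPKM, and hyphens lost from 302 symbols were restored. Libraries were not rescaled. Genes with a mean of at least 0.5 FPKM (12063) were fitted with limma 3.58.1 (lmFit, eBayes with trend, R 4.3.3), either with 1 mean per group or with additive terms for Id2/Id3 and pTα deletion, with Benjamini-Hochberg adjustment over those genes and a threshold of 0.05. The fits were tested on simulated data. Replicates are single mice. With 1 mean per group, the spread within groups comes from the L-DKO and LP pairs (2 residual degrees of freedom). The eBayes step adds a prior drawn from all genes (2.88 degrees of freedom). The p values thus rest on the spread between L-DKO and LP mice and on this prior. No spread between mice was measured for WT or pTαKO. The additive fits have 3 residual degrees of freedom. Their SE and p values thus also take in any departure from additive effects of the 2 deletions. The labels' replicate numbers were used only as an alternative.

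Members and gene lists were chosen with earlier results of these data known. All members are named. Of each other list, up to 4 genes per comparison were named, those past the threshold first and then the largest differences without overlap between groups. For *Rag2* and *Dntt*, the 5 nearest profiles among genes with a mean of at least 1 FPKM were named. Promoters and coordinates are from RefSeq tables for GRCm38.p6. The alternatives tried were a pseudocount of 0.1, no filter or a mean of at least 5 FPKM, equal medians, quantile normalization, a total outside the 20 most abundant entries, no trend, summed entries and each library left out.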

Additional observations from a re-analysis of the deposited data

Results flagged for a closer look

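The second entry of *Xrcc4*, which was set aside for the entry with the higher mean, reached 5.07 log2(FPKM + 1) in pTαKO replicate 2 and 4.70 in WT, and was listed at 0 to 0.66 in the 4 Id-deleted libraries. It stood out as signal outside the entries used, above its level in WT, and it entered a comparison where entries were summed. The second entry of *Xrcc6* reached 2.95 in L-DKO replicate 2 and was listed at 0 in WT and pTαKO. Both were noted for the same reason, and neither entry was tested on its own.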

How the results depend on the processing

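No member passed limma's threshold in any setting run. Fits in which a member kept its sign numbered 690, and those in which it turned numbered 42, in each case for a difference that was not called. The cause was not tested. Genes called in LP against L-DKO were 2, and 4 at a mean of at least 5 FPKM, 4 with quantile normalization and 1 with no trend. With no trend, L-DKO against WT fell from 5 to 0 and pTα loss from 32 to 7. Summing entries gave 3 for L-DKO against WT, 7 (from 12) for LP against pTαKO, a median *Xrcc4* to *Lig4* ratio of 0.675 (from 0.36), and *Xrcc4* at -1.09 for Id deletion and -0.78 for LP against pTαKO. *Lig4* in L-DKO against WT turned to -0.030 with equal medians, -0.053 with quantile normalization and -0.13 with the total outside the 20 most abundant entries. Quantile normalization turned *Dntt* to 0.00242 and *Prkdc* to -0.089 in LP against L-DKO, and *Dntt* to 0.032 for pTα loss. The total outside the 20 most abundant entries turned *Rag2* to -0.00238 in L-DKO against WT, *Dntt* to 0.00433 in LP against L-DKO and 0.00864 for pTα loss, and *Prkdc* to -0.027, *Lig4* to -0.030 and *Xrcc6* to -0.017 for Id deletion. This scaling moved the median of all genes by -0.178 in L-DKO replicate 2.

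Leaving out each library in turn gave 0 to 13 called genes for L-DKO against WT, 2 to 12 for LP against L-DKO, 2 to 12 for Id deletion, 1 to 16 for pTα loss and 4 to 15 for the interaction. WT, pTαKO and either L-DKO library or LP replicate 2, left out singly, each brought the pTα count to 3 or fewer, and without LP replicate 1 it was 16. The median of the 9 ranged from -0.20 to -0.0086 for Id deletion and from 0.035 to 0.30 for pTα loss. For Id deletion, *Rag2* ranged from -0.22 to 0.13, *Prkdc* from -0.13 to 0.21, *Lig4* from -0.011 to 0.13, *Xrcc4* from -0.13 to 0.90, *Xrcc6* from -0.082 to 0.21 and *Dclre1c* from -0.59 to 0.49. For pTα loss, *Rag2* ranged from -0.21 to 0.071, *Prkdc* from -0.16 to 0.035, *Xrcc5* from -0.048 to 0.53 and *Dclre1c* from -0.26 to 0.38. In L-DKO against WT, *Rag2* ranged from -0.10 to 0.35, *Lig4* from -0.16 to 0.17 and *Xrcc5* from -0.98 to 0.034. In LP against L-DKO, *Rag2* ranged from -0.43 to 0.019, *Prkdc* from -0.064 to 0.13, *Xrcc5* from -0.21 to 0.81 and *Dclre1c* from -0.56 to 0.042. For the interaction, *Lig4* ranged from -0.063 to 0.27, *Xrcc5* from -0.37 to 0.65 and *Nhej1* from -0.083 to 0.15. With the replicate block, LP against L-DKO gave 2 called genes and 0 of the 9, and same-numbered libraries did not deviate together (correlation 0.035).

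Depth is unknown, and WT and pTαKO rest on 1 mouse each, so their spread is borrowed from L-DKO and LP. *Prkdc* drops out at a mean of at least 5 FPKM, which leaves 8 members.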

Other observations

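Repair genes outside the 9 were read for Id2/Id3 deletion as well, and 0 of the listed genes passed limma's threshold there. An unadjusted p under 0.05 was given to 1 homologous recombination gene, 2 alternative end-joining genes, 1 accessory gene and 0 break response genes, beside 6.42% of all genes. Homologous recombination genes (17 of 19 measured) were lower with Id2 and Id3 deleted for 14 and higher for 3, with a median of -0.36. In all Id-deleted libraries 4 were lower (5.87% of all genes were), *Dna2*, *Rad52*, *Rad54l* and *Rpa3* (-0.84, -0.51, -0.37 and -0.36). *Rad52* was barely separate, at 4.516 in L-DKO replicate 2 against 4.528 in WT. So was *Rad54l*, at 2.682 in LP replicate 1 against 2.689 in pTαKO. Alternative end-joining genes (10 of 11) were lower for 8, with a median of -0.14. *Lig1*, which encodes the replicative DNA ligase, was 5.77 in WT and 5.70 in pTαKO but 5.39 and 5.34 for the L-DKO mice and 4.85 and 4.82 for the LP mice, a difference of -0.63 ± 0.15 (adjusted p = 0.728 in limma). *Rbbp8* (CtIP), which starts resection of broken ends, differed by -0.56. These were the 2 of the 10 that were lower without overlap, and 0 were higher (5.87% and 6.94% of all genes). The cell cycle list, to which *Lig1* is related in function, was below 0 in 21 of 21 genes for the same comparison (median -0.27), and its part in these values was not tested.

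Accessory end-joining genes (8 of 10) were below 0 for 7 with Id2 and Id3 deleted (median -0.18), and *Tdp1*, a phosphodiesterase that cleans blocked DNA ends, was 4.71 in WT and 4.67 in pTαKO but 4.46 and 4.20 for the L-DKO mice and 4.19 and 4.29 for the LP mice. Its difference was -0.40, and it was the 1 accessory gene lower in all Id-deleted libraries (5.87% of all genes were). In the break response list (15 genes measured), 1 gene was higher and 1 lower in all Id-deleted libraries, against 6.94% and 5.87% of all genes. *Chek2*, a checkpoint kinase, was 2.74 in WT and 2.02 in pTαKO. It was 3.21 and 3.01 for the L-DKO mice and 3.60 and 2.94 for the LP mice, a difference of 0.81 (adjusted p = 0.776 in limma). *Trp53bp1* (53BP1), which protects broken ends from resection, differed by -0.71 ± 0.31 (adjusted p = 0.783 in limma). Its gap was narrow, at 4.423 in L-DKO replicate 2 against 4.479 in WT.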
